A study of Arabidopsis thaliana with 8 samples.

Results

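The genes of the nuclear lamina and of the LINC complex were followed in rosette leaves of the *kaku4* mutant and of WT *Arabidopsis thaliana*. The set holds 10 genes taken by locus from an expression table of 24492 loci: *KAKU4*, the CRWN genes *CRWN1* to *CRWN4*, the SUN domain genes *SUN1* and *SUN2*, *WIP1*, and the WIT genes *WIT1* and *WIT2*. All 10 had a value in every library and all 10 passed the filter on low values, as did 20618 loci in the whole table. RNA-seq libraries were made from 3 samples of the *kaku4* mutant and 3 samples of WT, all from rosette leaves at an age of 6 weeks. The labels give the mutant genotype as kaku4-2 and the WT genotype as col, and the methods of the study describe a homozygous T-DNA insertion line, SALK_076754, next to Col-0. The mutant is therefore a single insertion line, and no rescued or second line was among these libraries. The labels do not say whether leaves of several plants were combined in a library, and the H3K27me3 ChIP-seq samples of the same genotypes were not analysed here.

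In plant cells the nuclear lamina is a protein meshwork under the inner nuclear membrane that is built without the lamins of animals. Its main parts are the CRWN proteins, long coiled-coil proteins that shape the nucleus and hold chromatin at its edge, and KAKU4, a plant protein that binds CRWN1 and CRWN4. The LINC complex spans both nuclear membranes: SUN proteins sit in the inner membrane and bind KASH proteins such as WIP1 in the outer membrane, where the coiled-coil WIT proteins join them and tie the nucleus to the myosin XI-I motor and to RanGAP, an activator of the Ran GTPase.

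Because the mutant is defined by its insertion, the *KAKU4* locus (AT4G31430) is described first. It lies on the plus strand of chromosome 4 from 15248377 to 15252837 on TAIR10.1, and its RefSeq transcript of 2213 bases has 13 exons. The genotyping primers of the study show which interval holds the insertion, since they bind on either side of it. The left primer lies in exon 3 at chr4:15249337-15249357 on the plus strand and the right primer in exon 6 at chr4:15250428-15250448 on the minus strand, 1112 bases from end to end. The real-time RT-PCR primers of the study show which part of the mRNA that assay reads. They cross the junctions of exons 10 and 11 and of exons 11 and 12, downstream of the insertion interval, and amplify positions 1295 to 1394 of the transcript. In the 4 primers below, written 5′ to 3′, capitals mark bases that belong to the downstream exon of a junction.
SALK_076754-LP: accaagcattcaacgactcag
SALK_076754-RP: ggatgaggaaaagtttccagc
kaku4Q-FP: gctcctcaaagTGGAACTGC
kaku4Q-RP: CCAAGACAGcatttgtggtg

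**Figure D1:**
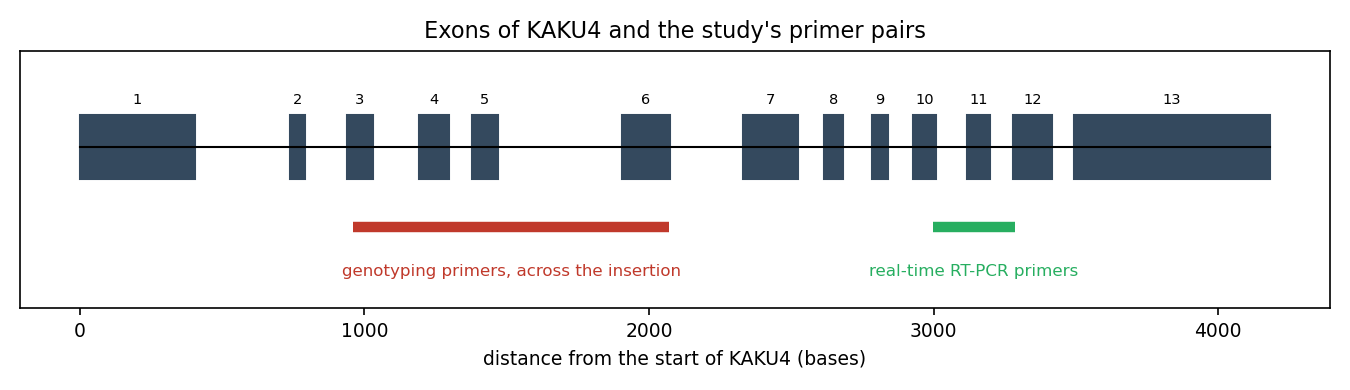
Exons of the RefSeq transcript of *KAKU4* (boxes, numbered 1 to 13) against the distance from the start of the gene in bases, with the spans of the genotyping and real-time RT-PCR primer pairs as bars. The genotyping span runs from exon 3 to exon 6, and the real-time RT-PCR span from exon 10 to exon 12 lies downstream of it.

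*KAKU4* had 0.739, 1.26 and 0.943 FPKM in the *kaku4* libraries, against 6.41, 5.45 and 5.71 FPKM in the WT libraries. FPKM counts sequenced fragments per kilobase of transcript, scaled by the mapped fragments of the library. The highest *kaku4* value lay far below the lowest WT value, and the mean in *kaku4* was 16.8% of that in WT (0.982 ± 0.265 FPKM in *kaku4* and 5.85 ± 0.50 FPKM in WT, SD, n = 3 each). The log2 fold change of FPKM + 0.1 (log2FC), *kaku4* over WT, was -2.49 (SE 0.22, adjusted p = 0.00019). Adjusted p values are Benjamini-Hochberg values of the limma test over all 20618 genes, and a gene was called upregulated or downregulated where the log2FC was 1 or more in size and the adjusted p at most 0.05. *KAKU4* was downregulated in this sense, as the labels imply, and kept a remainder of signal in each mutant library. From the spacing of the low values in each library this remainder was put at roughly 32 to 68 fragments in *kaku4*, against 229 to 303 fragments in WT. The table holds a value per locus, so where along the transcript the remaining fragments lay was not analysed here.

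In *kaku4* leaves *KAKU4* had the lowest level of the 10 genes and was above 17.6% of the genes tested, whereas in WT leaves it came after *SUN1* and *SUN2* and was above 50.3% of the genes tested. Set against the summed FPKM of the 4 CRWN genes in the same library, *KAKU4* came to 4.88%, 5.99% and 5.65% in the *kaku4* libraries and to 89.0%, 89.0% and 100.3% in the WT libraries. Part of this difference comes from the CRWN sum, whose mean in *kaku4* was 2.78 times that in WT. The CRWN transcripts are among the longest, for which fold changes were higher in this table, as described further on. This ratio was not computed with the length trend removed. None of the 4 neighbours of the locus was called from the deposited values. Upstream, AT4G31420 at a distance of 319 bases had a log2FC of 0.48 (SE 0.19, adjusted p = 0.058) and AT4G31410 at 2539 bases one of 0.04 (SE 0.14, adjusted p = 0.84). Downstream, AT4G31440 at 894 bases had a log2FC of 0.63 (SE 0.33, adjusted p = 0.13) and AT4G31450 at 2739 bases one of 0.32 (SE 0.20, adjusted p = 0.21). With the trend of fold change with transcript length removed, AT4G31440 was called upregulated, with a log2FC of 1.17 (SE 0.34, adjusted p = 0.027).

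Of the 10 genes, 4 were upregulated in *kaku4* (*CRWN1*, *CRWN3*, *CRWN4* and *WIT1*), 1 was downregulated (*KAKU4*) and 5 were not called, of which 3 (*CRWN2*, *SUN1* and *WIP1*) were higher with an adjusted p of at most 0.05 but a smaller fold change. With *CRWN1*, *CRWN3*, *CRWN4* and *WIT1* this made 7 genes higher when the fold threshold is left aside, against 28.6% of all genes tested. Over all genes tested 16.4% were upregulated and 11.5% downregulated. In 7 of the 10 genes every *kaku4* library lay above every WT library, against 33.5% of all genes tested, and in *KAKU4* every *kaku4* library lay below, against 31.3% of all genes tested. The median log2FC was 0.81 over the 9 genes other than *KAKU4* and 0.00 over all genes tested. All 4 upregulated genes have long transcripts, and none of them was called by limma once a trend of fold change with transcript length was taken out, a fit in which 7.77% of all genes were upregulated. With 3 libraries on each side the smallest two-sided p of an exact permutation test is 0.1, and the calls therefore depend on the variance that limma borrows across genes.

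**Figure D2:**
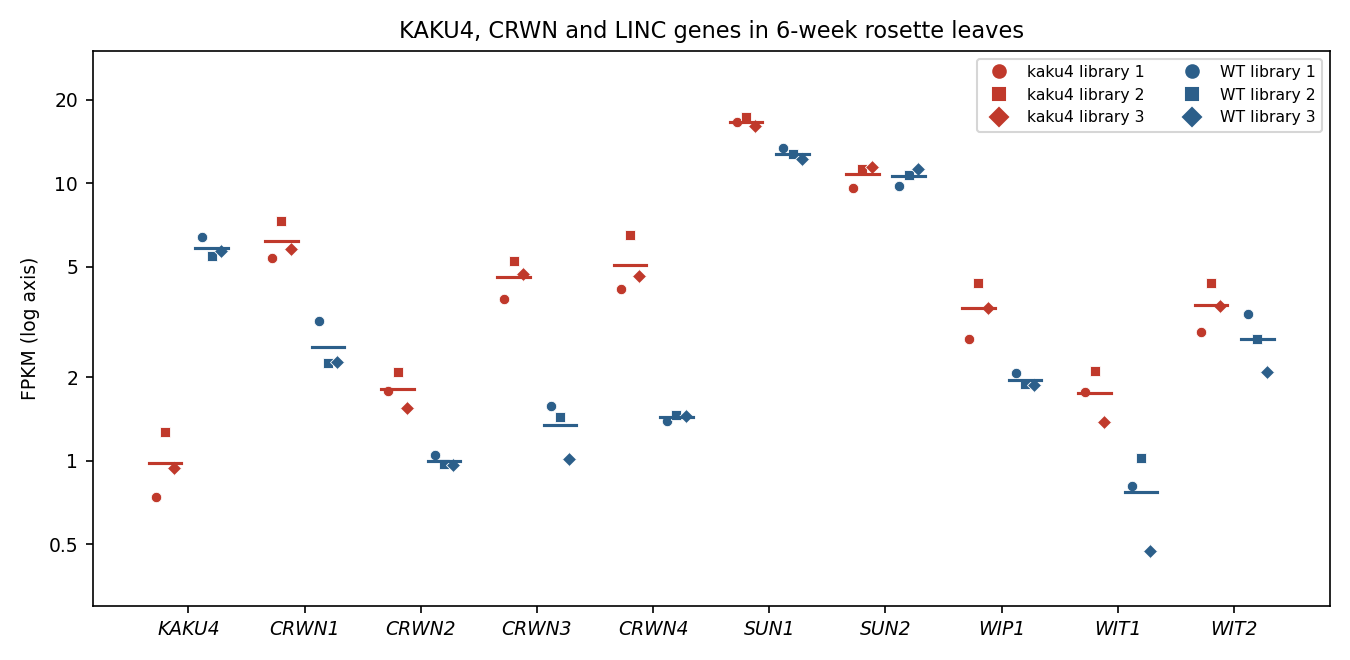
FPKM on a log axis of the 10 genes in each of the 3 *kaku4* libraries (red, left of each gene) and the 3 WT libraries (blue, right), with the marker shape giving the library number and the horizontal line the mean. *KAKU4* is lower in all *kaku4* libraries, the 4 CRWN genes, *SUN1*, *WIP1* and *WIT1* are higher in all *kaku4* libraries, and *SUN2* and *WIT2* overlap.

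Among the genes of the lamina, 3 of the 4 CRWN genes were upregulated in the mutant and *CRWN2* was not called. Beside this, 16.4% of all genes tested were upregulated, and 61.6% in the class of longest transcripts described further on, which holds all 4 CRWN genes. *CRWN1* (AT1G67230, chromosome 1, 25151211 to 25156389, minus strand) encodes a main organizer of nuclear shape and a partner of KAKU4. It had 5.39, 7.29 and 5.81 FPKM in *kaku4*, against 3.19, 2.25 and 2.26 FPKM in WT. The groups did not overlap, and the log2FC was 1.24 (SE 0.20, adjusted p = 0.00145).

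*CRWN4* (AT5G65770, chromosome 5, 26311311 to 26316025, plus strand) encodes the other CRWN protein that binds KAKU4. It had 4.14, 6.49 and 4.63 FPKM in *kaku4*, against 1.39, 1.46 and 1.45 FPKM in WT. The WT libraries lay close together while the second *kaku4* library stood above the other two, and the log2FC was 1.73 (SE 0.21, adjusted p = 0.00049). On the same strand the annotated span of *BCAT5* starts at the same base and covers the whole of *CRWN4*, and the exons of its RefSeq transcript overlap exons 7 to 10 of *CRWN4* over 386 bases. RefSeq also cross-references 1 transcript of *CRWN4* to *BCAT5*. Fragments along *CRWN4* could therefore have been given to either gene, and both its level and its fold change are uncertain. *BCAT5*, an amino acid aminotransferase gene, averaged 16.8 FPKM in *kaku4* and 21.4 FPKM in WT, with a log2FC of -0.34 (SE 0.13, adjusted p = 0.055), and of -0.82 (adjusted p = 0.0033) after removal of the length trend described further on.

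*CRWN3* (AT1G68790, chromosome 1, 25834686 to 25839541, minus strand) had 3.84, 5.22 and 4.72 FPKM in *kaku4*, against 1.57, 1.43 and 1.02 FPKM in WT. Its log2FC was 1.71 (SE 0.22, adjusted p = 0.00064), with no overlap between the groups. *CRWN2* (AT1G13220, chromosome 1, 4515464 to 4520306, plus strand) had 1.77, 2.09 and 1.55 FPKM in *kaku4*, against 1.05, 0.969 and 0.963 FPKM in WT. It was again higher in every mutant library, but its log2FC of 0.79 (SE 0.22, adjusted p = 0.014) stayed under the fold threshold. Summed, the 4 CRWN genes had 15.1, 21.1 and 16.7 FPKM in *kaku4*, against 7.20, 6.12 and 5.69 FPKM in WT. This sum includes *CRWN4*, whose level is uncertain through its overlap with *BCAT5*.

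CRWN proteins are related to each other, and reads of 1 gene could in principle have been assigned to another. Over the 6 pairs of CRWN genes the RefSeq proteins were identical at 29.7% to 48.1% of aligned positions, and the longest run of bases that any pair of transcripts shared was 13 to 17 bases, well short of the 150-base reads. Among the LINC genes, SUN1 and SUN2 proteins were identical at 69.4% of positions, and their transcripts shared a run of 19 bases. WIT1 and WIT2 proteins were identical at 39.5% of positions, and their transcripts shared a run of 13 bases. The longest shared run of the CRWN genes and that of the SUN genes are shown to give the scale of this likeness. The first lies at chr1:25151574-25151590 on the minus strand and the second at chr5:1472980-1472998 on the minus strand of TAIR10.1.
CRWN1 and CRWN2: aagaagctttggacttt
SUN1 and SUN2: tgagggcttatgctcgtga

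The SUN genes, which encode the inner membrane part of the LINC bridge, had the highest levels of the 10 genes in either genotype. *SUN1* (AT5G04990, chromosome 5, 1471481 to 1474029, minus strand) had 16.6, 17.3 and 16.1 FPKM in *kaku4*, against 13.4, 12.7 and 12.2 FPKM in WT. The groups did not overlap and the spread within each was small, and the log2FC was 0.38 (SE 0.12, adjusted p = 0.023), under the fold threshold. *SUN2* (AT3G10730, chromosome 3, 3358288 to 3360702, minus strand) had 9.64, 11.3 and 11.4 FPKM in *kaku4*, against 9.79, 10.7 and 11.2 FPKM in WT. Its groups overlapped along their whole range, with a log2FC of 0.03 and a 95% interval of -0.28 to 0.34 (adjusted p = 0.88).

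On the outer membrane, *WIP1* (AT4G26455, chromosome 4, 13365283 to 13367531, plus strand), which encodes a KASH protein held by the SUN proteins, had 2.73, 4.38 and 3.54 FPKM in *kaku4*, against 2.07, 1.89 and 1.88 FPKM in WT. Its groups did not overlap, and the log2FC of 0.81 (SE 0.21, adjusted p = 0.011) stayed under the fold threshold. *WIT1* (AT5G11390, chromosome 5, 3633649 to 3636934, plus strand), a partner of the WIP proteins, had 1.77, 2.11 and 1.38 FPKM in *kaku4*, against 0.811, 1.02 and 0.474 FPKM in WT. It was upregulated with a log2FC of 1.13 (SE 0.31, adjusted p = 0.014). This call rested on few fragments, roughly 97 to 141 in *kaku4* and 30 to 71 in WT, and on single libraries: the log2FC was 0.99 (adjusted p = 0.056) without *kaku4* library 2 and 0.85 (adjusted p = 0.046) without WT library 3.

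*WIT2* (AT1G68910, chromosome 1, 25908046 to 25911277, minus strand), the close relative of *WIT1* through which myosin XI-I is tied to the envelope, had 2.91, 4.35 and 3.61 FPKM in *kaku4*, against 3.38, 2.74 and 2.08 FPKM in WT. The groups overlapped, and the log2FC was 0.40 with a 95% interval of -0.13 to 0.94 (adjusted p = 0.17).

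The order of the 10 genes by mean deposited FPKM differed between the genotypes mainly through *KAKU4* and the CRWN genes. Long transcripts such as those of the CRWN genes tended to be higher in *kaku4* in this table, and no order was made with the length trend removed. In *kaku4* the order was *SUN1*, *SUN2*, *CRWN1*, *CRWN4*, *CRWN3*, *WIT2*, *WIP1*, *CRWN2*, *WIT1* and *KAKU4*. Neighbours from *CRWN1* to *WIP1* overlapped in this order, as did *CRWN2* and *WIT1*, and the other neighbours were apart. In WT the order was *SUN1*, *SUN2*, *KAKU4*, *WIT2*, *CRWN1*, *WIP1*, *CRWN4*, *CRWN3*, *CRWN2* and *WIT1*. There the first 3 genes were apart from all others, *WIT2* overlapped *CRWN1*, *WIP1* was apart from its neighbours, and neighbours from *CRWN4* to *WIT1* overlapped. Within *kaku4*, the second library was highest for 9 of the 10 genes and the first library lowest for 7 of them, whereas in WT the first library was highest for 7 genes and the last lowest for 6.

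Shares within a family do not depend on how a library is scaled, and they set the related genes against each other. *CRWN3* made up 25.3%, 24.8% and 28.2% of the CRWN sum in *kaku4*, against 21.9%, 23.4% and 17.9% in WT, and *CRWN4* made up 27.3%, 30.8% and 27.7% in *kaku4*, against 19.3%, 23.9% and 25.5% in WT. *CRWN1* made up 35.6%, 34.6% and 34.8% in *kaku4*, against 44.3%, 36.8% and 39.7% in WT. *CRWN2* made up 11.7%, 9.91% and 9.27% in *kaku4*, against 14.5%, 15.8% and 16.9% in WT. So *CRWN3* and *CRWN4* took a larger part of the family in every mutant library, with differences of 5.06 and 5.72 percentage points between the means, and *CRWN1* and *CRWN2* a smaller part, with differences of -5.32 and -5.47 points. The difference of *CRWN1* was -3.30 points without WT library 1. *CRWN4*, whose level is uncertain through its overlap with *BCAT5*, enters the sum behind every CRWN share, and no shares without it were computed.

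*SUN1* made up 60.8 ± 2.5% of the *SUN1* and *SUN2* sum in *kaku4* and 54.7 ± 2.9% in WT, and *WIT1* made up 32.7 ± 5.1% of the *WIT1* and *WIT2* sum in *kaku4* and 21.7 ± 4.7% in WT (SD, n = 3 each). In all 6 shares tested the groups did not overlap, and each had a two-sided p of 0.1 by the exact permutation test, the smallest that 3 libraries against 3 allow, and an adjusted p of 0.1 over the 6 shares. None of the shares could therefore pass the threshold of 0.05 in this design. The CRWN shares of a library add up to the whole, so they are not separate results. In the FPKM of single genes, all *kaku4* libraries lay above WT in 33.5% and below in 31.3% of genes tested. No such background was computed for shares. The difference of *WIT1* was 11.0 points, and it was 6.73 points with the length trend removed and 7.29 points without the first library of each genotype.

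**Figure D3:**
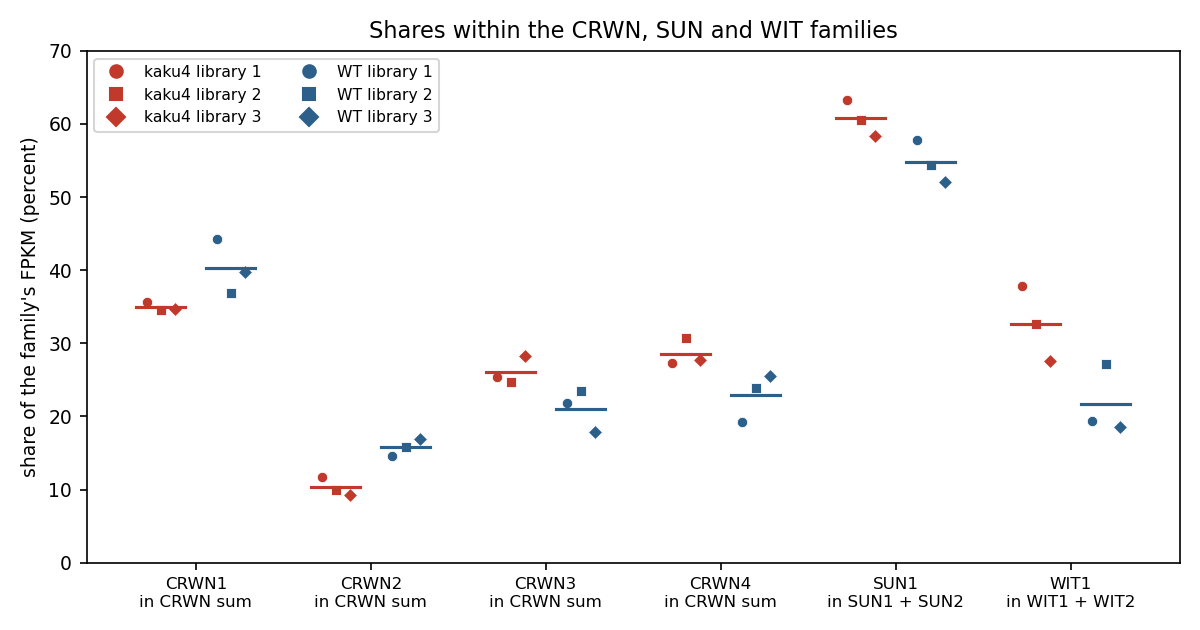
Share of each gene in the summed FPKM of its family, in percent, in each of the 3 *kaku4* libraries (red, left) and the 3 WT libraries (blue, right), with the mean as a line. *CRWN3*, *CRWN4*, *SUN1* and *WIT1* have larger shares in all *kaku4* libraries, and *CRWN1* and *CRWN2* smaller ones.

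Fold changes in this table followed transcript length. With the genes split into 10 classes of equal size by length, the median log2FC was -0.85 in the shortest class and 1.16 in the longest, where transcripts of 3059 to 16593 bases lay and 61.6% of genes were upregulated. All 4 CRWN transcripts, of 3579 to 4106 bases, fell into this longest class. *CRWN3* and *CRWN4* lay 0.55 and 0.57 above its median log2FC, *CRWN1* lay 0.07 above it and *CRWN2* had a difference of -0.37 from it. *WIT1*, with 2769 bases, lay 0.39 above the median of its own class, and *WIP1*, with 2071 bases, lay 0.59 above. *SUN1* lay 0.15 above its class median, *SUN2* and *WIT2* had differences of -0.0037 and -0.031 from theirs, and *KAKU4* had a difference of -2.92.

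**Figure D4:**
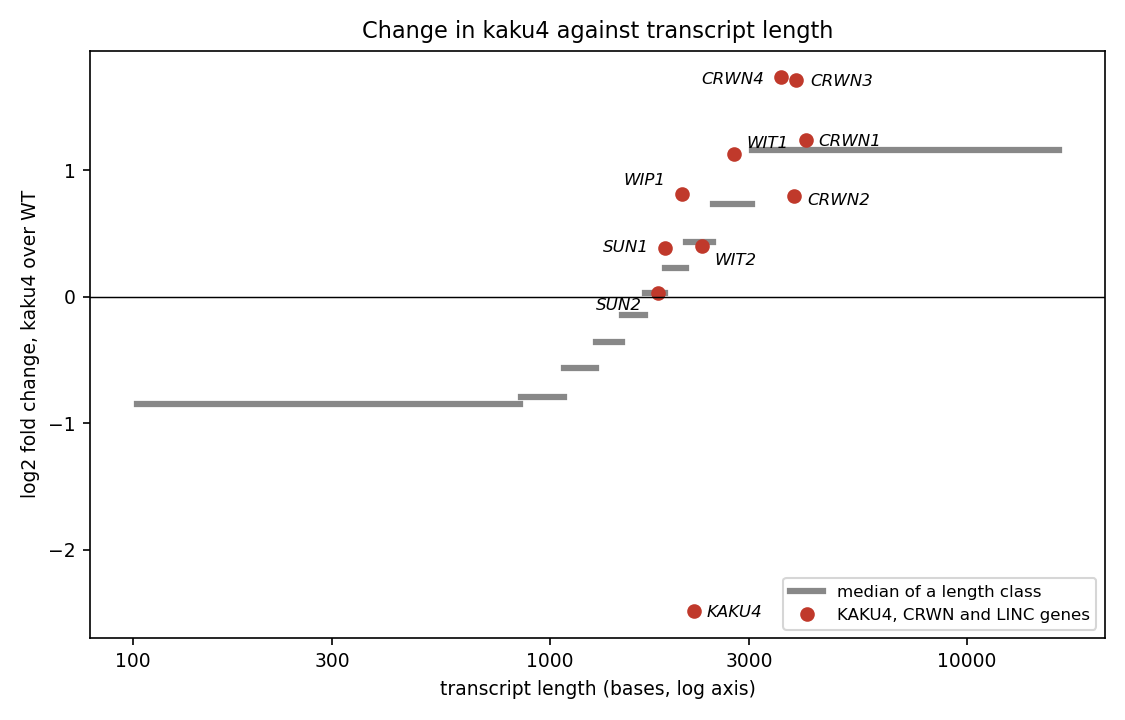
log2 fold change of FPKM + 0.1, *kaku4* over WT, against transcript length in bases on a log axis, for the 10 genes (points) and as the median of each of 10 length classes of all genes tested (grey bars, spanning the class). The class medians climb with length, the CRWN genes lie in the longest class on either side of its median of 1.16, and *KAKU4* lies far below.

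When the trend of each library with length was subtracted, the log2FC of *KAKU4* was -2.85 (SE 0.18, adjusted p = 8.0e-05) and it was still called. None of the other 9 genes was called by limma, and 4 of them were higher and none lower at an unadjusted p under 0.05, beside 24.4% higher and 24.7% lower of all genes. Of all genes tested 7.77% were called upregulated and 5.21% downregulated in that fit. *CRWN4* then had a log2FC of 0.72 (SE 0.14, adjusted p = 0.0056), *CRWN3* one of 0.62 (SE 0.19, adjusted p = 0.033) and *WIP1* one of 0.55 (SE 0.17, adjusted p = 0.037), and in these 3 genes and *SUN1* every *kaku4* library remained above every WT library, as was so for 26.8% of all genes. An adjusted p of at most 0.05 with a higher value in *kaku4*, at any size, was reached by 20.2% of all genes in that fit. *CRWN1* had a log2FC of 0.09 with a 95% interval of -0.32 to 0.51 (adjusted p = 0.71), and *CRWN2* one of -0.30 with an interval of -0.75 to 0.16 (adjusted p = 0.27). *WIT1* had a log2FC of 0.41 (adjusted p = 0.29), *SUN1* one of 0.25 (adjusted p = 0.092), and *SUN2* and *WIT2* had one of -0.04 each (adjusted p = 0.80 and 0.89). The subtraction also removes any change of long genes that took place in the leaves, and the 2 cannot be told apart here.

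**Figure D5:**
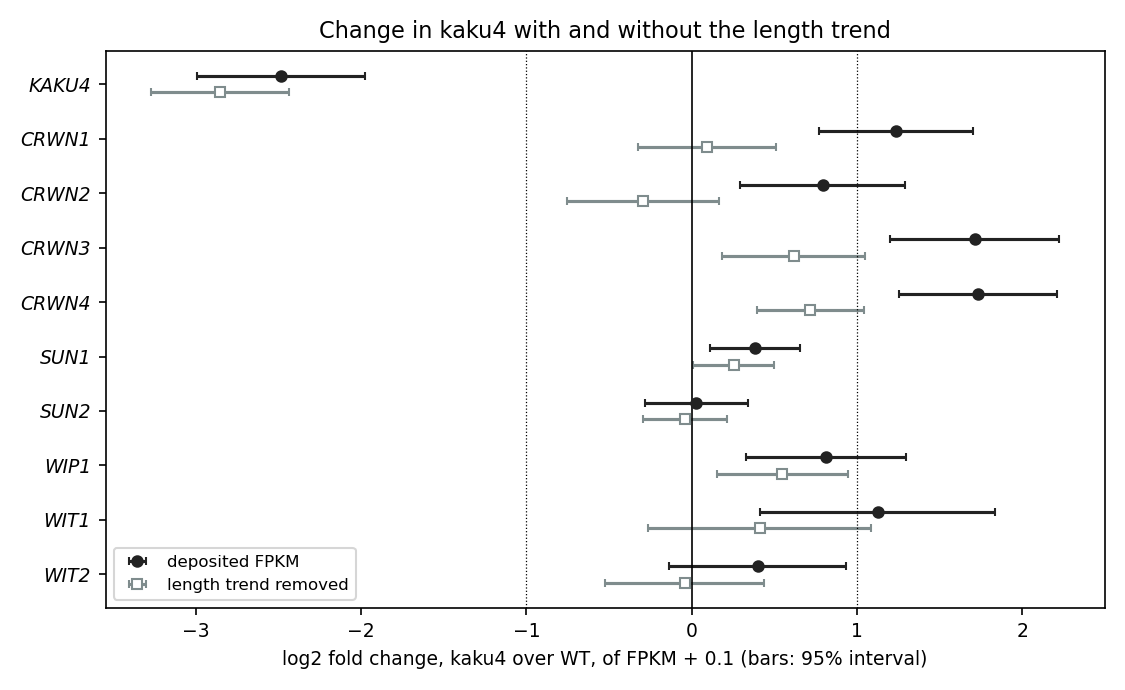
log2 fold change, *kaku4* over WT, of the 10 genes with 95% intervals from the deposited FPKM (filled circles) and after the trend with transcript length was removed (open squares), with dotted lines at -1 and 1. *KAKU4* stays near -2.5 to -2.9 in both, *CRWN3* and *CRWN4* stay above 0 but under 1 after removal, and the interval of *CRWN1* then includes 0.

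A wider list of nuclear envelope genes was read beside these 10. Of 17 loci listed, 16 had values and were tested, and 4 of them were upregulated and none downregulated, beside 16.4% and 11.5% of all genes tested, with a median log2FC of 0.70. At an unadjusted p under 0.05 limma gave 6 higher and 1 lower, which was AT5G26770, beside 31.2% higher and 30.9% lower of all genes tested. *SUN3*, a SUN protein gene of a second subfamily, averaged 2.65 FPKM in *kaku4* and 1.00 FPKM in WT, with a log2FC of 1.32 (SE 0.20, adjusted p = 0.00107). *XI-I*, the gene of the myosin that the WIT proteins recruit, averaged 2.72 FPKM in *kaku4* and 1.31 FPKM in WT, with a log2FC of 1.00 (SE 0.26, adjusted p = 0.010), at the very edge of the fold threshold. AT5G46070, annotated as a guanylate-binding family protein, averaged 3.99 FPKM in *kaku4* and 1.19 FPKM in WT, with a log2FC of 1.67 (SE 0.30, adjusted p = 0.0020). AT3G03140, annotated as a Tudor/PWWP/MBT superfamily protein, averaged 1.83 FPKM in *kaku4* and 0.753 FPKM in WT, with a log2FC of 1.18 (SE 0.21, adjusted p = 0.0022).

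The relatives of *WIP1* differed in their values. *WIP2* had a log2FC of 0.91 (SE 0.25, adjusted p = 0.014), and *WIP3*, the most highly expressed of the WIP genes, one of -0.03 (SE 0.15, adjusted p = 0.87). *RANGAP2*, which encodes a RanGAP protein anchored through the WIP and WIT proteins, had 0.83 (SE 0.23, adjusted p = 0.014). AT5G26770 was lower in every mutant library, with 3.98, 6.00 and 4.72 FPKM in *kaku4*, against 6.67, 7.19 and 7.92 FPKM in WT, and a log2FC of -0.57 (SE 0.18, adjusted p = 0.026), under the fold threshold. *SUN4*, *SUN5*, *SINE1*, *SINE2*, *SINE3*, *RANGAP1*, AT3G05830 and AT1G09470 overlapped between the genotypes in the deposited values and were not called. After the length trend was removed none of the 16 was called in either direction by limma, with 3 higher and 2 lower at an unadjusted p under 0.05, beside 24.4% higher and 24.7% lower of all genes, and their median log2FC was 0.24. The 2 lower were AT5G26770, with a log2FC of -0.66 (adjusted p = 0.011), and *SINE1*, with one of -0.61 (adjusted p = 0.062). In that fit every *kaku4* library of *SINE1* lay below every WT library.

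The 3 genes with the profile most like that of *KAKU4* were found by the Euclidean distance between log2(FPKM + 0.1) profiles over the 6 libraries, each centred on its mean. They were *NAS4*, a nicotianamine synthase gene (distance 0.438), AT1G62420 (0.511) and the sugar transporter gene *SWEET10* (0.651). *NAS4* averaged 11.1 FPKM in *kaku4* and 56.5 FPKM in WT, AT1G62420 averaged 3.40 FPKM in *kaku4* and 16.9 FPKM in WT, and *SWEET10* was listed at 0 in each *kaku4* library, against 0.357, 0.469 and 0.440 FPKM in WT. For *SWEET10* the size of the drop, and with it the distance, depends on the 0.1 added to the FPKM. As all 3 were picked for this likeness, no test is given.

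The summed FPKM of a library went with the genotype. It was 953041 to 1188690 in *kaku4* and 1412230 to 1559940 in WT. Chloroplast-encoded loci set the first library of each genotype apart. They summed to 30587 FPKM in the first *kaku4* library and 44363 FPKM in the first WT library, against 499 to 945 FPKM in the other 4 libraries. Deviations of these first libraries correlated at 0.41 over 16844 genes. The correlation was 0.31 for *kaku4* library 3 with WT library 2, and 0.29 for *kaku4* library 2 with WT library 3. All other pairs across the genotypes lay between -0.31 and 0.12. Some libraries thus varied together across genotypes, and the source of this was not tested. Without the first library of each genotype *CRWN1*, *CRWN3*, *CRWN4* and *KAKU4* were still called, *WIP1* was called with a log2FC of 1.03 (adjusted p = 0.0080), and *WIT1* was not, with 1.17 (adjusted p = 0.0504). Scaled to equal sums over nuclear loci, 6 of the 10 genes were upregulated, beside 30.3% of all genes called upregulated and 2.03% downregulated. With the libraries centred on their medians, 3 of the 10 were upregulated, beside 2302 genes called upregulated and 3846 downregulated in all.

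The tissue label was checked on markers. The 4 leaf marker genes (*RBCS1A*, *LHCB2.1*, *CA1* and *CAB2*) summed to 38116 to 44501 FPKM in *kaku4* and to 46499 to 52861 FPKM in WT. They did not go the same way, and none was called by limma. *RBCS1A* had a log2FC of 0.26 (adjusted p = 0.46), with overlapping groups. *LHCB2.1*, *CA1* and *CAB2* had -0.44, -0.42 and -0.73 (adjusted p = 0.16, 0.064 and 0.090). The 4 floral markers (*AG*, *AP3*, *PI* and *SEP3*) summed to 0.333 to 0.508 FPKM in *kaku4* and to 1.53 to 2.04 FPKM in WT, with 2 values listed at 0, both in *kaku4*. The anther gene *LAP6* had 1.28 to 1.98 FPKM in *kaku4* and 0.820 to 1.11 FPKM in WT, and the root gene *PYK10* had 14.1 to 22.3 FPKM in *kaku4* and 6.73 to 8.92 FPKM in WT. *SAG12*, a protease gene of senescing leaves, had 104 to 116 FPKM in *kaku4*, against 15.3 to 20.9 FPKM in WT. The part of leaf age, of the library sums and of cell composition in the changes of the lamina and LINC genes was not tested, and in whole leaves fewer cells of a type and less RNA per cell cannot be told apart.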

How the data were processed

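Total RNA of rosette leaves was sequenced by the authors as 150-base paired reads, aligned to TAIR10 with TopHat2 2.0.9 and turned into FPKM with Cufflinks, whose version is not given in the sources used here. The deposited table gives these FPKM values, recorded under a general unit (other) because 1442 of 24492 loci carry a missing-value mark in all 6 libraries; these were left out. The study's count test, DESeq2, could not be run on FPKM, so log2(FPKM + 0.1) was tested with limma 3.58.1 (R 4.3.3, eBayes with a mean-variance trend, no covariates) over 20618 genes whose mean reached 0.1 FPKM, and such fold changes understate low genes. Reads per gene are not in the table: the fragment numbers given are estimates from the spacing of low values and RefSeq transcript length, so no counting interval is given. p values measure the spread between 3 libraries per genotype, described by the study as independent biological replicates. Shares were tested with an exact two-sided permutation test (scipy 1.17.1).

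The files hold no coordinates, and coordinates, exons and sequences come from RefSeq TAIR10.1, matched by locus, with 20464 tested genes having a transcript length. The length trend was a lowess curve (span 0.4) of each gene's deviation from its mean in each library. Strand use in the counting is not given in the sources used here, and the 3′ end of *WIT1* overlaps a gene on the other strand. Genes named are the 10 members, the nuclear envelope list, the 2 nearest genes on each side of *KAKU4*, the 3 most similar profiles and the markers, with *BCAT5* added for its overlap with *CRWN4*. Members and lists were chosen with earlier results of these data known. The functions were tested on simulated data. In all, 19 alternative settings were planned and 2 were added after seeing the data. The H3K27me3 samples were not analysed here.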

Additional observations from a re-analysis of the deposited data

How the results depend on the processing

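*KAKU4* was the only one of the 10 genes called lower, and no gene of the nuclear envelope list was called lower, under every alternative run. The log2 fold change of *KAKU4* lay between -2.88 and -1.80 over the alternatives, and between -2.67 and -2.32 when single libraries were left out. The number of the 10 genes called higher, 4 as deposited, was 3 to 4 when single libraries were left out, 2 after quantile normalization, and 0 in each fit with the length trend removed (alone, with the replicate block, without the first library of each genotype, and after scaling to equal sums). *CRWN1* lost its call after quantile normalization (0.96) and removal of a trend with GC content (0.98), and *WIT1* also with centred libraries (0.93), quantile normalization (0.76) and a pseudocount of 1 (0.64). The nuclear envelope list, with 4 called higher, had 7 with equal sums, 2 with centred libraries, 1 after quantile normalization, 1 with a pseudocount of 1, 3 to 7 with single libraries left out (7 without the first *kaku4* library), 1 with the length trend removed and without the first library of each genotype, and 0 in the other fits with the length trend removed. Equal sums and centring moved the median log2 fold change of all genes by 0.48 and -0.20, and the genes called higher and lower, 3380 and 2371 as deposited, were 6154 and 412 with equal sums, 2302 and 3846 with centring, 1602 and 1075 with the length trend removed, and 1743 and 1674 with a pseudocount of 1.

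Several log2 fold changes turned their sign, all of them not called under the setting named. *CRWN2* turned to -0.30 with the length trend removed, alone or with the replicate block, to -0.38 without the first libraries as well and to -0.29 after equal sums as well, and *XI-I* to -0.31, -0.13 and -0.29 in the same settings. *WIT2* turned to -0.042 and, after equal sums, -0.028. *SUN1* turned to -0.014 and AT5G26770 to 0.077 with the GC trend removed. *SUN2*, 0.027 as deposited, turned to -0.17 with centring, -0.017 after quantile normalization and -0.041 with the length trend removed (-0.018 without the first libraries, -0.019 after equal sums). By limma it was -0.37 with the GC trend removed (adjusted p = 0.027) and 0.54 with equal sums (adjusted p = 0.033). Its log2 fold change ranged from -0.027 to 0.11 with single libraries left out. *WIP3* turned to 0.48 with equal sums and 0.014 without the first libraries, and ranged from -0.090 to 0.053 with single libraries left out. The causes were not tested. The 6 family shares were computed again in only some of these settings. Those were the length trend removed, quantile normalization, single libraries left out, and the first library of each genotype left out. The direction of all 6 was kept in each of them. Removal of the GC trend and other pseudocounts were not run for the shares.

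Deviations of same-numbered libraries correlated at 0.41, 0.12 and -0.012 over 16844 genes. Cross-numbered pairs ran from -0.31 to 0.31, so replicate numbers were not taken as pairs. With the replicate block 4 of the 10 genes were called higher and 1 lower, and over all genes 3410 and 2481. Fragment numbers limit the low genes most: *WIT1*, *CRWN2* and the remainder of *KAKU4* rest on the fewest.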
